A study of Homo sapiens with 8 samples.

Results

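The miR-143 and miR-145 cluster comprises 4 mature miRNAs, chosen by name from the 2575 names in each count file: hsa-miR-143-5p and hsa-miR-143-3p from the MIR143 hairpin, and hsa-miR-145-5p and hsa-miR-145-3p from the MIR145 hairpin. All 4 had counts, and 3 of the 4 passed the filter on low counts, against 480 of 2575 names in all. miR-143-5p failed it and is described by its counts. The cells were HCT116, a human colorectal cancer line of epithelial origin, used between passages 16 and 19 in adherent culture. In the ETBF group (4 libraries) they shared the culture for 6 hours with enterotoxigenic Bacteroides fragilis, a gut anaerobe that secretes a protease toxin, at 500 bacteria per cell. In the control group (4 libraries) they received only the medium of the bacteria, and the titles name them untreated. Only this line was used, with no other cell type in the culture named by the labels. The labels are silent on whether replicates came from separate cultures. Each p-value therefore reflects only how these samples vary, part of which may be technical.

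MIR143 and MIR145 are processed from the long noncoding RNA CARMN, whose transcription is strongest in smooth muscle cells and fibroblasts, and in the gut wall most of their miRNA lies in these cells and not in the epithelium. The guide strands, which are the arms retained by Argonaute, are miR-143-3p and miR-145-5p, and they favour a contractile, non-dividing state. Low levels of both in bulk colorectal tumours have long been described.

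The hairpins are shown because the results turn on which arm of each was counted. The sequences and positions come from RefSeq on GRCh38.p14, whereas the reads were counted against GRCh37.p5, and no count rests on these coordinates. MIR143 lies at chr5:149428918-149429023 on the plus strand and MIR145 at chr5:149430646-149430733 on the same strand, with 1622 bases between them. In GENCODE release 29 both hairpins lie within CARMN. MIR143 is wholly inside exon 4 of the transcript CARMN-209, and MIR145 overlaps no CARMN exon and lies in an intron of that transcript. The mature arms are in capitals, 5p first and 3p second.
MIR143: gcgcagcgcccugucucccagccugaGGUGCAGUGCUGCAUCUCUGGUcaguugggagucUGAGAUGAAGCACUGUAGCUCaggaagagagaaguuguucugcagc
MIR145: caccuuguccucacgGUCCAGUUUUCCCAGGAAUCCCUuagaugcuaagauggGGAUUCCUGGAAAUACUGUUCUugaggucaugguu

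The mature sequences follow with the seed, bases 2 to 8, in capitals, because the seed sets most target pairing and here differs between all 4 members.
hsa-miR-143-5p: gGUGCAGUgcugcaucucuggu
hsa-miR-143-3p: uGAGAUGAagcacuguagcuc
hsa-miR-145-5p: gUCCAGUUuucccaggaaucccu
hsa-miR-145-3p: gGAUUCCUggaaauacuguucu

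The members are 21 to 23 bases long, and a read spans a whole mature miRNA, so no length scaling was applied when their levels were compared. Each maps to 1 hairpin in the RefSeq table, so none carries the repeated counting that affects miRNAs with several gene copies. Among the 2260 names matched to a RefSeq sequence, miR-4770 and miR-6088 share the seed of miR-143-3p, and none shares that of the remaining 3 members. The other 315 names, miR-5195-3p among them, were not compared. Both sharers had 0 counts in all 8 libraries, which allows up to 0.460 to 1.16 CPM (counts in every 1000000 counts of a library) depending on the library. miR-4770 is shown because it also resembles miR-143-3p beyond the seed.
hsa-miR-4770: uGAGAUGAcacuguagcu

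Library totals ran from 2591655 to 4706156 counts with ETBF and from 5243400 to 6522542 in controls, so the ETBF libraries were the shallower. The cluster took 0.0283% to 0.0354% of the counts with ETBF and 0.0273% to 0.0297% in controls. In a bulk library, fewer cells carrying a miRNA and less of it per cell cannot be told apart. CPM values below are scaled with TMM factors, fold changes are ETBF over control, and a miRNA was called when its Benjamini-Hochberg adjusted p over all 480 tested was under 0.05 in edgeR's quasi-likelihood test.

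Of the cluster, the passenger arm miR-145-3p rose with ETBF, and the guide arms miR-145-5p and miR-143-3p did not pass the test. The count of called members was 1 of 3 tested, beside 34.4% of all 480 miRNAs called in either direction, 19.8% called higher and 14.6% called lower (95 and 70 miRNAs, or 71 and 89 with upper-quartile scaling), so the share of called members is near the background. By level the order was miR-145-5p, miR-143-3p, miR-145-3p and miR-143-5p in each of the 8 libraries. The guides stood at rank 127 and 146 of 480 tested miRNAs with ETBF and at rank 129 and 141 in controls. miR-145-3p stood at rank 183 with ETBF and 206 in controls.

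**Figure D1:**
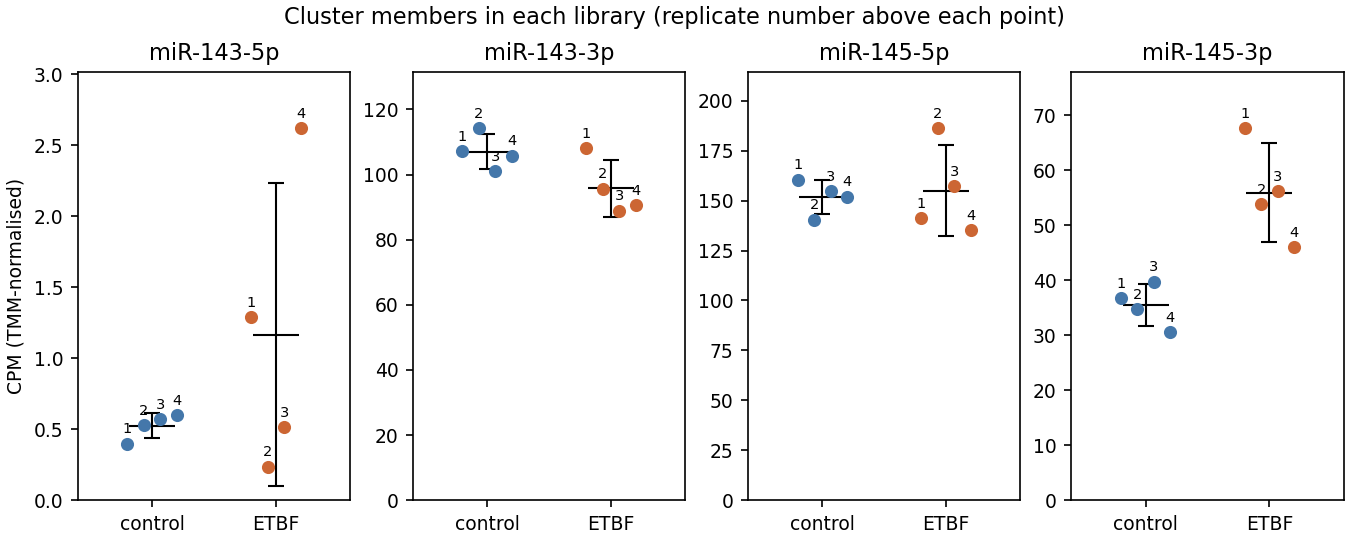
TMM-normalised CPM (vertical axis, separate scale per panel, from 0) of the 4 cluster members in each control and ETBF library, with the mean and SD in black (n = 4). For miR-145-3p the lowest ETBF library (46.0 CPM) lies above the highest control (39.7 CPM), and the groups overlap for the other 3 members.

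miR-145-5p is the guide that drives smooth muscle differentiation and represses KLF4, KLF5 and IRS1. Its level was 141, 186, 157 and 135 CPM in ETBF replicates 1 to 4 and 160, 141, 155 and 152 CPM in control replicates 1 to 4, from 361 to 1019 counts per library. The groups overlapped, and the ETBF libraries held both the highest and the lowest value. The ETBF mean was 155 ± 22.9 CPM and the control mean 152 ± 8.38 CPM (SD, n = 4 each), and the log2 fold change was 0.03 (SE 0.10, 95% interval -0.18 to 0.25, edgeR adjusted p = 0.842). Its sign turned in 4 of 18 alternatives: with scaling by the upper quartile (-0.05), with no filter (-0.01), and when ETBF replicate 2 (-0.09) or control replicate 2 (-0.02) was left out.

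miR-143-3p is the guide known to repress the kinase gene MAPK7. Its level was 108, 95.6, 88.9 and 90.6 CPM in ETBF replicates 1 to 4 and 107, 114, 101 and 106 CPM in control replicates 1 to 4. ETBF replicates 2, 3 and 4 lay below every control, and ETBF replicate 1 lay among them. The means were 95.8 ± 8.69 and 107 ± 5.45 CPM (SD, n = 4 each), with a log2 fold change of -0.16 (SE 0.09, 95% interval -0.35 to 0.04, edgeR adjusted p = 0.205). It stayed below 0 and short of the threshold in all 18 alternatives, with values from -0.24 to -0.10 and adjusted p from 0.0637 to 0.442.

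The ratio of the guides compares products of the same host transcript within a library and does not depend on library scaling. There were 0.766, 0.513, 0.565 and 0.670 counts of miR-143-3p per count of miR-145-5p in ETBF replicates 1 to 4, and 0.668, 0.813, 0.654 and 0.696 in the controls. These ranges overlapped. The difference in the mean log2 ratio was -0.18 (two-sided exact permutation p = 0.257, n = 4 each, where the smallest p the design allows is 0.0286).

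miR-145-3p is the passenger arm of MIR145, the strand of the duplex that is mostly discarded when Argonaute keeps the guide. Its level was 67.7, 53.8, 56.2 and 46.0 CPM in ETBF replicates 1 to 4 and 36.8, 34.7, 39.7 and 30.6 CPM in control replicates 1 to 4, from 123 to 315 counts per library. Every ETBF library lay above every control. Such a separation with higher ETBF values was found for 18.1% of all tested miRNAs. The means were 55.9 ± 8.96 and 35.4 ± 3.85 CPM (SD, n = 4 each), and the fitted log2 fold change was 0.67, or 1.59-fold (SE 0.12, 95% interval 0.41 to 0.93, edgeR adjusted p = 0.000516). The call held in all 18 alternatives, with log2 fold changes from 0.55, without ETBF replicate 1, to 0.81, after thinning all libraries to the smallest total.

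**Figure D2:**
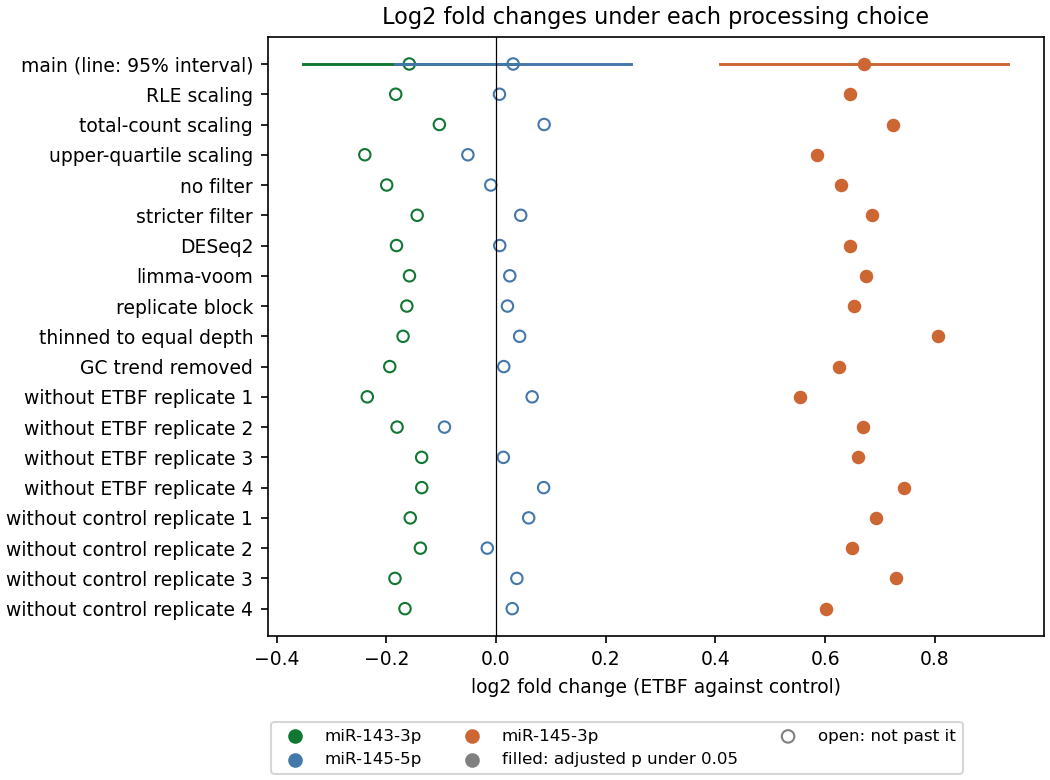
Log2 fold changes (horizontal axis) of the 3 tested members in the reported fit, whose lines are 95% intervals, and under each of 18 other processing choices (rows). Filled points have an adjusted p under 0.05: miR-145-3p is filled in every row, from 0.55 to 0.81, and the guides are open in every row.

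miR-143-5p is the passenger arm of MIR143 and was close to the detection limit. It had 6, 1, 2 and 7 counts in ETBF replicates 1 to 4 and 2, 3, 3 and 4 counts in control replicates 1 to 4. Summed by group, its 16 counts with ETBF and 12 in controls amount to 1.05 and 0.520 CPM relative to the summed library totals. The ETBF values lie on both sides of the controls. In a fit without a filter the log2 fold change was 0.94 (SE 0.68, 95% interval -0.39 to 2.26, edgeR adjusted p = 0.547 over 1496 miRNAs), so no difference was detectable at this depth.

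Within MIR145 the balance of the arms moved toward 3p. The 3p arm made up 32.4% (95% Wilson interval 29.5 to 35.4), 22.4% (20.0 to 25.1), 26.4% (23.5 to 29.5) and 25.4% (21.7 to 29.5) of the hairpin's counts in ETBF replicates 1 to 4. In controls 1 to 4 it made up 18.6% (16.3 to 21.2), 19.8% (17.4 to 22.4), 20.4% (18.1 to 23.0) and 16.7% (14.8 to 18.9). The shares did not overlap between groups, although the interval of ETBF replicate 2 overlaps those of controls 1, 2 and 3, and that of ETBF replicate 4 those of controls 2 and 3. How often the arm shares of other hairpins separate in this way was not counted. The intervals describe counting error alone, because amplified reads with no molecular identifier need not come from different molecules. Put as a ratio, 4.32 ± 0.476 counts of miR-145-5p stood against each count of miR-145-3p in controls and 2.82 ± 0.568 with ETBF (SD, n = 4 each).

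The mean log2 ratio of 5p to 3p was 1.47 ± 0.304 in the ETBF libraries against 2.10 ± 0.155 in controls (SD, n = 4 each), a difference of -0.63 (SE 0.17, 95% interval -1.02 to -0.24, limma adjusted p = 0.0224 over 118 hairpins with both arms tested). The call was lost without ETBF replicate 4 (-0.66, adjusted p = 0.0510) and when hairpins of any count were tested (-0.63, adjusted p = 0.276). It is 1 of 38 arm ratios called, 32.2% of the 118, and 1 of 31 called toward the minor arm, 26.3% of the 118. Its p-value ranked 26 of 118. The 118 are pairs of names that differ only in the arm. A tested arm whose name carries a copy number, such as let-7f-1-3p, was therefore left out, and a name shared by several hairpins counts as 1.

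Within MIR143 the arms were far more unequal. The 5p arm made up 0.370% to 0.561% of the hairpin's counts in controls and 1.18%, 0.245%, 0.575% and 2.81% in ETBF replicates 1 to 4. The ETBF shares lie on both sides of the control range. The log2 ratio of 5p to 3p differed by 0.84 (two-sided exact permutation p = 0.286, n = 4 each). Single libraries moved this value: without ETBF replicate 4, which had 7 counts of the 5p arm, it was 0.30 (exact permutation p = 0.571). Without ETBF replicate 2, which had 1 count, it was 1.32, with the smallest p that 3 against 4 libraries allow (exact permutation p = 0.0286).

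**Figure D3:**
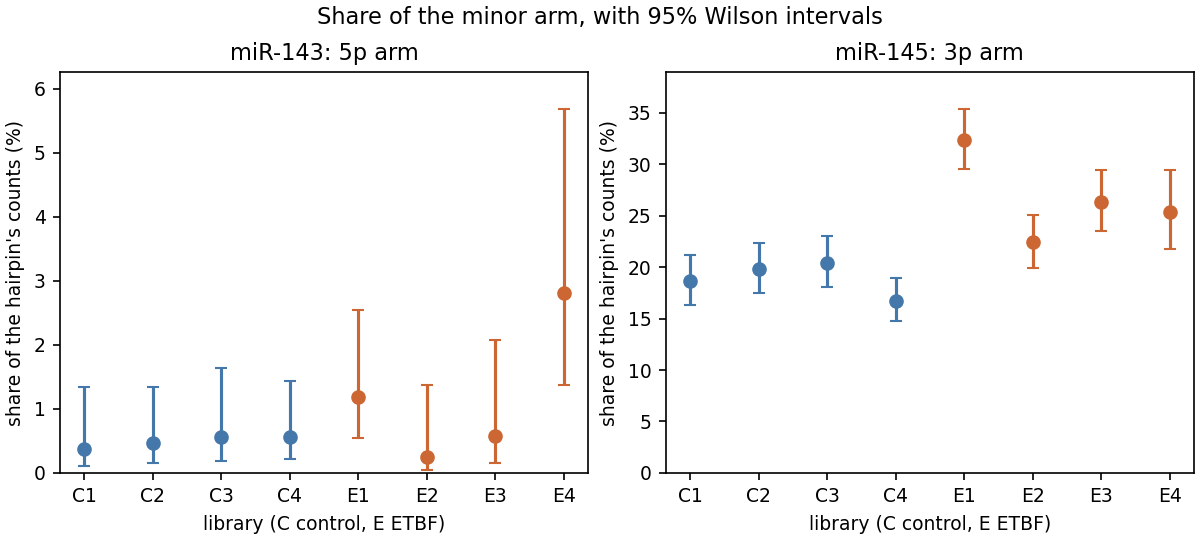
Share of the hairpin's counts (vertical axis, percent, from 0) taken by the minor arm of MIR143 (left, 5p) and MIR145 (right, 3p) in each library, C for control and E for ETBF with the replicate number. Bars are 95% Wilson intervals for counting error: the MIR145 shares run from 16.7% to 20.4% in controls and from 22.4% to 32.4% with ETBF.

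The pattern of miR-145, a passenger arm called higher beside a guide that was not called, was found for 20 of the 118 hairpins, miR-145 included. Here the minor arm is the arm with the lower mean CPM over the 8 libraries. Of the 118 minor arms 33 were higher, 11 lower and 74 not called, with a median log2 fold change of 0.16. Of the 118 major arms 18 were higher, 30 lower and 70 not called, with a median of -0.01, and over all 480 miRNAs the median was 0.01. The log2 fold change of miR-145-3p was exceeded by 19 minor arms and by 1 major arm. The filter can pass a low-count arm through the group where it is higher alone. For example, miR-152-5p, 1 of the 20 minor arms, averaged 3.83 CPM with ETBF and 1.48 CPM in controls. How many of the 20, 33 and 19 minor arms passed in this way was not counted.

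**Figure D4:**
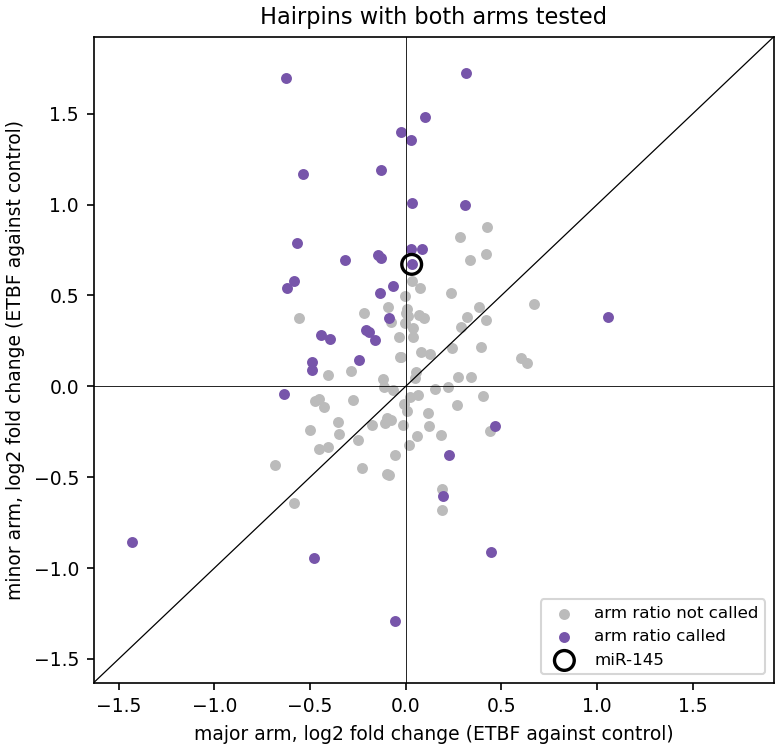
Log2 fold change of the major arm (horizontal axis) and the minor arm (vertical axis) of the 118 hairpins with both arms tested; the diagonal marks equal change, and purple points are the 38 hairpins whose arm ratio was called. miR-145 (circled) lies at 0.03 and 0.67, among the hairpins above the diagonal.

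The spread of the members between libraries was wider with ETBF. The coefficient of variation of miR-145-5p was 14.8% with ETBF and 5.52% in controls, where counting alone gives 4.19% and 3.42%. For miR-143-3p it was 9.07% and 5.09%, beside 5.30% and 4.08% from counting. For miR-145-3p it was 16.0% and 10.9%, beside 7.0% and 7.1% from counting. These spreads were not tested against each other, and how many of all tested miRNAs spread more widely with ETBF was not counted.

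The members did not share their profiles most closely with each other. Likeness was measured as the root mean square difference of centred log2 CPM over the 8 libraries, which share depth and scaling. The centred values keep the difference between groups, so miRNAs of like fold change are favoured as neighbours. No background of distances was computed. Each pair of members competes here with all 480 tested miRNAs, so the ranking says little about how the members vary together. The root mean square difference was 0.20 between the guides and 0.38 between the arms of MIR145. Closest to miR-145-3p were miR-27b-5p (0.12), a minor arm that rose from 14.5 ± 1.45 to 24.3 ± 3.85 CPM, miR-548n (0.12), and miR-10b-3p (0.15), another minor arm. Closest to miR-145-5p were miR-181b-5p (0.08), miR-501-3p (0.09) and miR-196b-5p (0.11), and closest to miR-143-3p were miR-450a-5p, miR-10b-5p and miR-28-3p (0.08 each).

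The ETBF libraries were shallower, and miR-145-3p has the lowest GC content of the members, so its value was recomputed for both. Its GC content is 40.9%. Of the 417 tested miRNAs with a matched sequence, the 60 within 2 percentage points of it had a median log2 fold change of 0.02. After removal of the GC trend the log2 fold change of miR-145-3p was 0.63 (edgeR adjusted p = 0.000155 over these 417 only). After thinning to equal depth it was 0.81 (edgeR adjusted p = 0.000491).

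The other markers of smooth muscle, fibroblasts and muscle ranged from 0 counts to levels like those of the guides. Of 11 such names 3 had 0 counts in all 8 libraries (miR-133b, miR-206 and miR-490-3p), and miR-133a-3p and miR-1, made with them in muscle, had 12 and 66 counts in all. miR-214-3p, a fibroblast miRNA, had 1 count. miR-208a and miR-208b were also planned for this list but are not among the 11 names, so their counts are not given. The summed level of the 11 was 233 to 300 CPM with ETBF and 283 to 291 CPM in controls, ranges that overlap. Of the 4 tested, 0 were higher, 1 was lower and 3 were not called, with a median log2 fold change of -0.29. The share called lower over all miRNAs was 14.6%. The member called was miR-499a-5p, from the myosin gene MYH7B, which fell from 28.98 ± 3.16 to 18.5 ± 2.51 CPM. miR-199a-3p, a mesenchymal miRNA, averaged 150 ± 22.7 CPM (ETBF) and 160 ± 6.09 CPM (control). This level is uncertain because several hairpins make the same sequence. Under the name miR-199b-3p the same sequence averaged 74.96 CPM (ETBF) and 80.2 CPM (control). The level of miR-199a-3p, and the summed level that includes it, may therefore be raised by repeated counting, which was not tested. The other arm, miR-199a-5p, was not called and averaged 1.85 CPM (ETBF) and 2.51 CPM (control). miR-199b-5p, also mesenchymal, was not called and had 93.3 ± 16.7 CPM (ETBF) and 93.3 ± 8.66 CPM (control), close to miR-143-3p.

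The epithelial and colonocyte markers covered a wide range of levels in the same libraries. miR-200c-3p averaged 10960.5 CPM (ETBF) and 13640.1 CPM (control). miR-194-5p averaged 168 CPM (ETBF) and 155 CPM (control), close to miR-145-5p, and miR-215-5p failed the filter with 78 counts in all. All 10 epithelial and colonocyte markers had counts. Their sum was 25821 to 28365 CPM with ETBF and 29567 to 31495 CPM in controls, so the groups did not overlap. Most of the sum was miR-200c-3p, miR-200b-3p (6597 CPM with ETBF, 6743 in controls) and miR-200a-3p (4900 and 5590 CPM). How many of all tested miRNAs separate with lower ETBF values was not counted. Of the 9 markers tested, 1 was higher, 5 lower and 3 not called (median log2 fold change -0.19). Over all 480 miRNAs 19.8% were higher and 14.6% lower, with a median of 0.01. The keratinocyte miRNA miR-203a was the member that rose, and the most abundant members that fell were miR-200c-3p, miR-200a-3p and miR-429. Blood and endothelial markers gave 1 higher (the erythroid miR-451a), 1 lower (the endothelial miR-126-3p) and 4 not called of 6. miR-451a varied widely with ETBF, at 29.4 ± 19.8 CPM, against 7.24 ± 1.97 CPM in controls. The list summed to 1149 to 1366 CPM with ETBF and 1547 to 1741 CPM in controls. Most of this sum was miR-126-3p, at 1131 ± 98.6 CPM (ETBF) and 1520 ± 83.9 CPM (control). Of 4 tested neuronal and liver markers 0 were higher, 2 lower (miR-128-3p and miR-129-5p) and 2 not called, with sums of 11480 to 14440 and 13437 to 15680 CPM. The neuronal miR-9-5p, not called, averaged 8492 ± 854 CPM (ETBF) and 8652 ± 910 CPM (control). The level of a marker list therefore does not by itself show the identity of the cells. The part of these marker levels in the values of the cluster was not tested.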

How the data were processed

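Small RNA counts from 8 HCT116 libraries (4 ETBF, 4 control) were grouped by their titles. Each deposited file lists unnormalised read counts under mature miRNA names. Per the submitters' processing notes, the authors used Trimmomatic, FastQC and featureCounts with GRCh37.p5; for versions, aligner, annotation release and strandedness the answer is not given in the sources used here.

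Counts were tested in R 4.3.3 with edgeR 4.0.16 (quasi-likelihood, TMM, expression filter at a minimum count of 10, Benjamini-Hochberg over 480 miRNAs, threshold 0.05). The SE was approximated from the log2 fold change and the F statistic as |log2 fold change|/√F. Arm ratios were tested with limma 3.58.1 on log2 ratios after adding 0.5 to each count, and single ratios by exact permutation over 70 arrangements. The procedures were tested on simulated data. Alternatives used RLE, total-count and upper-quartile scaling, other filters (none, minimum count 50), DESeq2 1.42.0, limma-voom, a replicate block, thinning, a GC correction, other added counts and leaving out each library. Within-group library pairs differed by more than sampling noise (chi-square over its degrees of freedom, 9.90 to 55.6).

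The members and lists were chosen with earlier results of these data known. Named are the 4 members, seed sharers, the 3 nearest profiles per tested member and, from each list, called members (up to 4 by abundance). Other list members named were chosen after their values were seen. Some context lists are not reported here.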

Additional observations from a re-analysis of the deposited data

How the results depend on the processing

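The direction and call of miR-145-3p and the missing call of miR-143-3p held in all 18 alternatives. miR-145-5p passed in none of the 18, and its log2 fold change turned to -0.0513 with upper-quartile scaling and -0.00958 without a filter; leaving out a library gave -0.0940 to 0.0868, and the cause was not tested. The 5p to 3p ratio of miR-145 kept its direction in 14 alternatives and its call in 12: it was -0.632 without a filter (adjusted p = 0.276, with 9 arm ratios called in place of 38, over more hairpins of low count) and -0.495 to -0.775 elsewhere. Without a library it ran from -0.739 to -0.495, and the call was lost without ETBF replicate 4 (adjusted p = 0.0510), where 25 arm ratios were called, against up to 38 without another library. The miR-143 arm ratio ran from 0.301 to 1.32 without a library. The ratio of the guides passed in none of 12.

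The replicate numbers of the titles showed no sign of pairing the libraries. Deviations of equal numbers from their group means correlated at -0.0584 to 0.0608. No ETBF library correlated best with the control of its own number. With 4 libraries in each group, these values cannot show whether equal numbers were prepared together. With the replicate number as a block 159 miRNAs were called in place of 165 and 28 arm ratios in place of 38, and no call of a member changed (miR-145-3p 0.653; miR-145 arm ratio -0.632, adjusted p = 0.0495). Depth limits miR-143-5p, at 1 to 7 counts a library, to a description, so it has no value in the filtered fits.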
